A study of Mus musculus with 3 samples.

Results

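Most cathepsins are proteases of the lysosome. The 10 genes examined here, Ctsa, Ctsb, Ctsc, Ctsd, Ctsh, Ctsk, Ctsl, Ctss, Ctsw and Ctsz, were taken by name from the 36835 genes that have a level in the table. They were measured by RNAseq in 3 libraries, labelled CD4, M1 and M2. All mice were of the BALB/C strain and carried tumors of a mouse renal carcinoma cell line injected into the kidney, which the labels name Renca and the study's account of this experiment Renca Ch+ L+, a line with a Cherry and luciferase reporter. M2 were sorted from tumors as type-2 macrophages, high in the protein of Emr1 and intermediate in CD11b, and M1 as type-1 macrophages, intermediate in the protein of Emr1 and high in CD11b. CD4 T cells were sorted by TCRβ and CD4. According to the labels, 30 tumors and 4 spleens were pooled, and the labels differ on whether CD4 T cells came from spleen or tumor and on whether the harvest was at day 14 or day 16. Each subset had 1 library of pooled cells, so that no difference has a replicate check and no p-value is given. Levels are in FPKM, or fragments divided by transcript length in kilobases and by 1000000 mapped reads, and can be compared between genes because length is divided out.

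Most cathepsins are cysteine proteases that are made as inactive proenzymes, sent to the lysosome and activated there by cleavage. They degrade proteins taken up by phagocytosis, and in antigen-presenting cells they also cut the invariant chain that guards the peptide groove of MHC class II. Macrophages are known for high levels of several family members, while Ctsw is known from cytotoxic lymphocytes and Ctsk from osteoclasts. Ctsa, a serine carboxypeptidase, and Ctsd, an aspartic protease, are cathepsins by name and place only, and the other 8 members are of the cysteine family.

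The levels of cell type markers went against the names of the libraries labelled M2 and CD4. The 9 T-cell markers summed to 1635 FPKM in M2, 16.7 in CD4 and 5.73 in M1, and all 9 were highest in M2. Most of the sum in the library labelled CD4 was the gene Cd4, at 15.2 FPKM. In M1 most of it was Cd2, at 3.39 FPKM. The 8 macrophage markers found summed to 248 FPKM in M2, 4783 in CD4 and 1841 in M1, and none of the 8 was highest in M2. No T-cell or macrophage marker was listed at 0 in any library. Neutrophil markers summed to 204 FPKM in M2, 66.97 in M1 and 35.7 in CD4. Kidney epithelial markers summed to 102, 40.4 and 55.1 in the same order, and dendritic cell markers to 7.98, 26.0 and 3.05. M2 was highest for 4 of 6 neutrophil, 3 of 7 kidney and 3 of 5 dendritic cell markers. Few genes carried these sums, namely S100a8 and S100a9 (84.5 and 110 FPKM in M2), Cdh16 (87.8 in M2) and Cd209a (23.7 in M1). Csf3r was lowest in M2, at 8.40 FPKM against 19.7 in M1 and 25.3 in CD4. Flt3 was highest in M2, at 2.19 FPKM against 0.314 in M1 and 0.227 in CD4. Libraries are therefore named by their labels alone, every direction below rests on those labels, and the comparison of CD4 with M1 is the one that does not use the library labelled M2. In pooled cells, a lower share of cells of a type and less RNA per cell cannot be told apart. The estimated depth was 61.8 for M1, 60.1 for M2 and 73.0 for CD4, in units of 1000000 fragments. All intervals below are 95% intervals from these depths, and cover counting error only.

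Short stretches of promoter are shown for the 3 members whose window held an E-box and for Ctsc, to show where the matched letters lie before the start of each gene. CACGTG is the E-box core of the element through which TFEB-family factors act on lysosomal genes. GAGGAAGT is a site of PU.1, a factor of the myeloid lineage. The RefSeq promoter table of build GRCm38.p6 held 8 windows for 7 of the 10 members, each of 250 bases before and 50 after a transcript start. All sequences read 5′ to 3′ on the strand of the gene and end before the transcript start, and capitals mark the match.
Ctsa, plus strand, chr2:164833736-164833772: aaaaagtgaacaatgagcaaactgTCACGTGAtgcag
Ctsd, minus strand, chr7:142387895-142387950: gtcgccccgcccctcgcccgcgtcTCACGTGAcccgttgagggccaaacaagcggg
Ctsl, minus strand, chr13:64370727-64370770: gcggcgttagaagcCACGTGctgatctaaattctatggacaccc
Ctsc, plus strand, chr7:88277910-88277965: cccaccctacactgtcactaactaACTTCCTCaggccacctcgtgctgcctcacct

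The motif CACGTG was searched on both strands and was found in 3 of the 8 windows, those of Ctsa, Ctsd and Ctsl, against 7.15% of 32851 promoters in the table. TCACGTGA, which contains CACGTG and extends it to 8 letters, was found in 2 of the 8, for Ctsa and Ctsd, against 0.974% of all promoters. In Ctsa the match began 13 bases before the start, and a second began at base 5 of the transcript. In Ctsd it began 99 bases before the start, with a further CACGTG at 245 bases before it. The reverse complement of GAGGAAGT was found in Ctsc, 151 bases before the start, and in Ctss, 2 bases before it and running past the start, while 3.20% of all promoters held this motif on either strand. TGACTCA, the AP-1 site, was found in 0 of the 8 windows and in 5.20% of all promoters. A match in these letters is a description of the sequence and was not tested as a binding site.

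The cathepsins as a group were high in every library. Their summed level was 4344 FPKM in the library labelled CD4, 2982 in M1 and 903 in M2. Of the 10 genes, 7 had their highest level in CD4, 1 in M1 and 2 in M2. In both CD4 and M1, 8 of the 10 lay above the 97th percentile of genes with a level above 0, and in M2 6 did. The spread within the family was wide, since the highest member exceeded the member in ninth place 118-fold in CD4, 103-fold in M1 and 9.99-fold in M2. With every row of the genes summed, including rows that lack a value for some library, the M2 sum was 1072 FPKM and this ratio was 16.5-fold in M2, with Ctsb as the highest member.

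**Figure D1:**
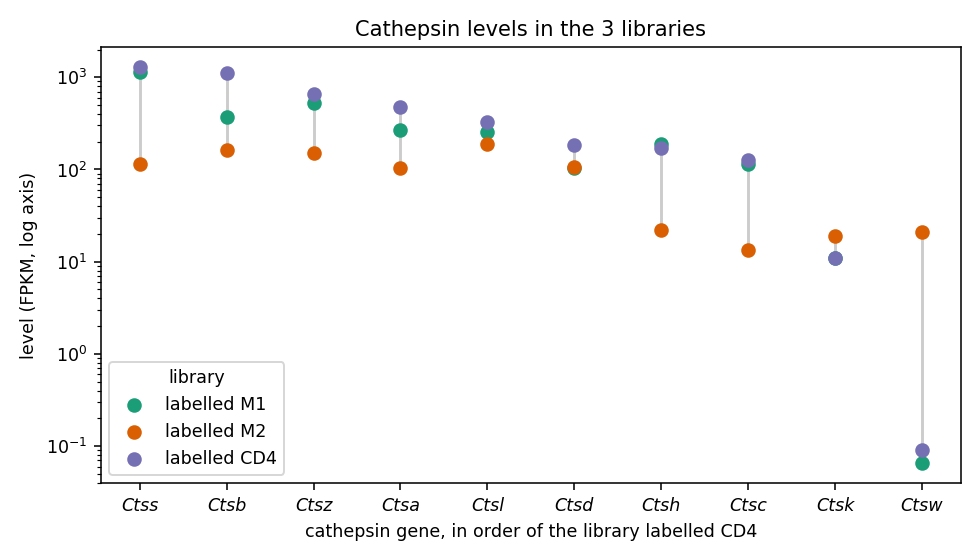
FPKM (log axis) of the 10 cathepsin genes in the 3 libraries, with 1 point for each library and grey lines spanning the 3 values. For 8 genes M2 is at or near the lowest point, whereas Ctsk and Ctsw are highest in M2, Ctsw at 21.0 FPKM against less than 0.1 in the other libraries.

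Between the libraries labelled CD4 and M2, 6 cathepsins were at least 2-fold higher in CD4 and 1 was at least 2-fold higher in M2, on the log2(FPKM + 1) scale, while 3 differed by less. The 6 were Ctss, Ctsc, Ctsh, Ctsb, Ctsa and Ctsz, and the 1 was Ctsw. Among the 12703 genes with at least 1 FPKM in a library, 15.0% were higher in CD4 by this measure and 17.0% were higher in M2. The median difference of the 10 members was 2.14, beside -0.10 over those 12703 genes. The scale understates the change of low genes, of which Ctsw is the one here. Macrophage markers went in the direction of the 6, with 8 of 8 at least 2-fold higher in CD4 than in M2. T-cell markers went in the direction of Ctsw, with 9 of 9 at least 2-fold higher in M2. The part of these cell types in the cathepsin differences was not tested.

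Between M1 and M2 the same 6 genes were higher in M1 and Ctsw in M2, with 14.2% and 16.6% of the 12703 genes past 2-fold in these directions. Both comparisons use the library labelled M2, so that the second is no independent repeat of the first. The median difference was 1.28, beside -0.09 for the 12703 genes. Between CD4 and M1, which does not use M2, only Ctsb passed 2-fold, higher in CD4, and 9 cathepsins were within 2-fold. The shares of the 12703 genes were 6.37% higher in CD4 and 6.60% higher in M1, and the median difference of the members was 0.24. When each library was rescaled to a total of 1000000, all differences shifted by -0.17 for CD4 against M2 and by -0.18 for M1 against M2 before the pseudocount, and the numbers of genes past 2-fold were the same in all 3 comparisons.

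**Figure D2:**
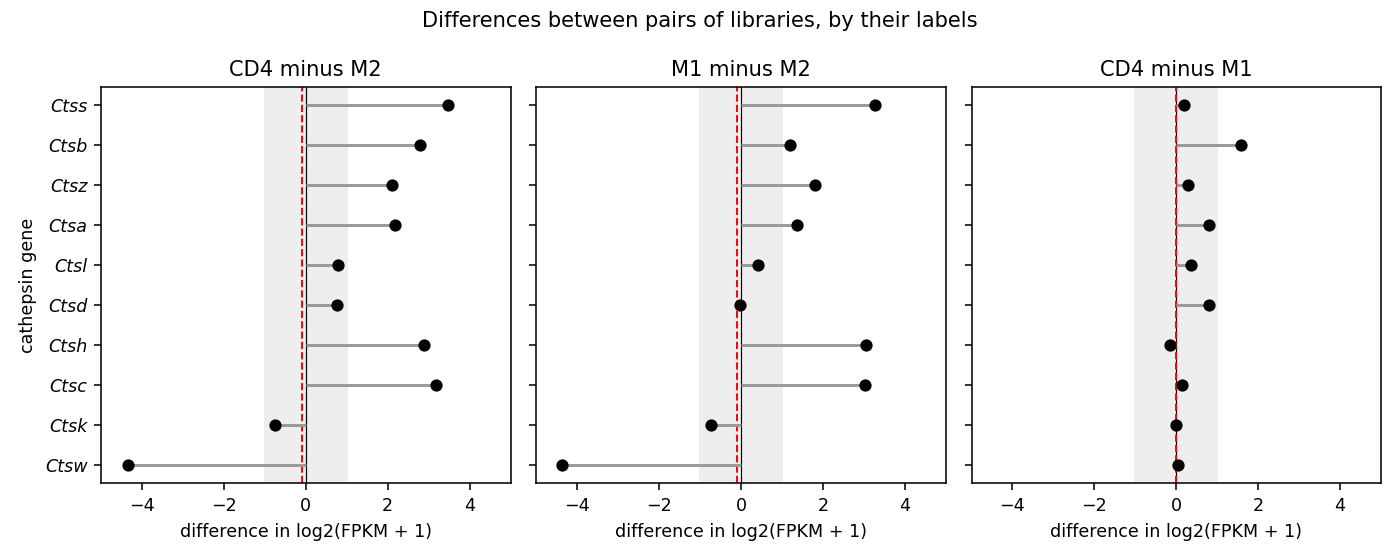
Differences in log2(FPKM + 1) of the 10 cathepsins for the 3 pairs of libraries, with points to the right higher in the first library named. The grey band marks less than 2-fold and the red dashed line the median of 12703 genes, and 6 genes lie right of the band for CD4 minus M2 and for M1 minus M2 but only Ctsb does for CD4 minus M1.

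**Figure D3:**
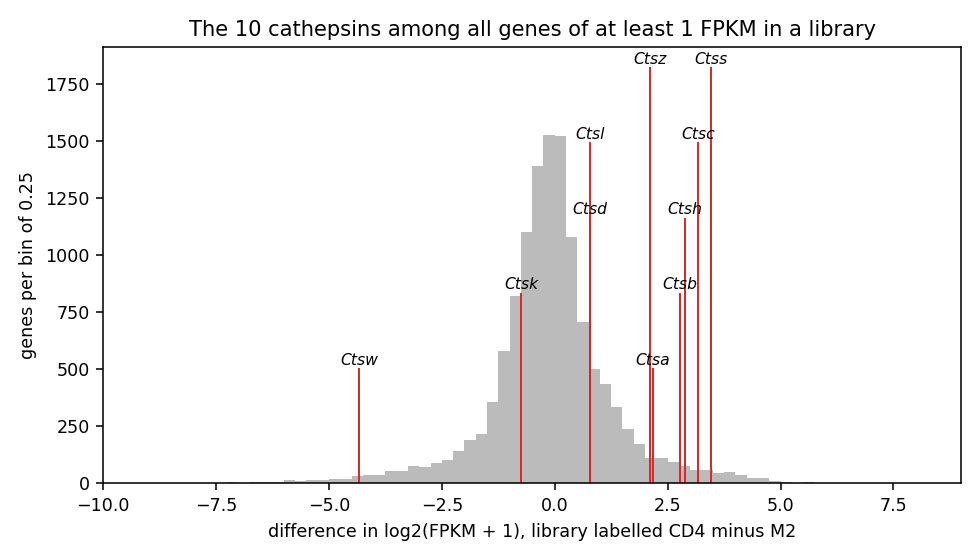
Numbers of genes per bin of 0.25 in the difference in log2(FPKM + 1) between the libraries labelled CD4 and M2, over 12703 genes, with a red line at each cathepsin (line heights only separate the names). Ctsl, Ctsd and Ctsk lie in the bulk of the genes within 2-fold, 6 members lie to the right of 2 and Ctsw lies at -4.33.

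Ctss is the endopeptidase that completes the removal of the invariant chain from MHC class II in bone marrow-derived antigen-presenting cells. It lies on chromosome 3 from 95330708 to 95360325 (ENSMUSG00000038642, build NCBIM37). Its level was 1286 FPKM in the library labelled CD4, 1137 in M1 and 116 in M2. It was the highest of the 10 in CD4 and M1, and the fourth in M2. The level in CD4 was 11.1 times (10.9 to 11.3) that in M2, the largest ratio of CD4 to M2 among the 10 members, and that in M1 was 9.80 times (9.60 to 10.01) that in M2. CD4 and M1 differed by 1.13-fold (1.12 to 1.14).

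The substrate of Ctss moved otherwise between CD4 and M1. Cd74, which encodes the invariant chain, was at 2373 FPKM in the library labelled CD4, 4867 in M1 and 374 in M2. With the class II genes H2-Aa, H2-Ab1, H2-Eb1 and H2-DMa, this list held 5 genes. All 5 were at least 2-fold higher in CD4 than in M2 and in M1 than in M2, and 4 of the 5 in M1 than in CD4. Among the 12703 genes, 15.0% were higher in CD4 than in M2, 14.2% in M1 than in M2 and 6.60% in M1 than in CD4. Ctss itself was within 2-fold between these last libraries, slightly higher in CD4.

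Ctsh, an aminopeptidase, and Ctsc, a dipeptidyl peptidase that activates granule serine proteases, stood beside Ctss as the members with the largest ratios to M2. Ctsh (ENSMUSG00000032359, chromosome 9 from 89948990 to 89970927) stood at 169 FPKM in CD4, 190 in M1 and 22.0 in M2. It was the only member highest in M1, by 1.12-fold (1.10 to 1.14) over CD4, and when every row of the gene was summed CD4 was 1.05 times M1. Ctsc (ENSMUSG00000030560, chromosome 7 from 95426595 to 95459398) was at 127 FPKM in CD4, 115 in M1 and 13.2 in M2, a ratio of CD4 to M2 of 9.59 (9.19 to 10.01). The genes of granule proteases that Ctsc is known to activate were not higher where Ctsc was higher. Of 8 such genes, only 3 reached 1 FPKM in a library, and a gene below 1 FPKM in both libraries cannot pass 2-fold. These 3, Gzma, Gzmb and Gzmk, were at least 2-fold higher in M2 than in CD4 and in M1. Gzma was at 8.69 FPKM in M2 against 0.128 in CD4 and 0.115 in M1. Among the 12703 genes, 17.0% were higher in M2 than in CD4 and 16.6% higher in M2 than in M1. Prtn3 was listed at 0 in each library.

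The level of Ctsc rested on a transcript that is not annotated as coding. In CD4 and in M1, 100% of it was on Ctsc-002, a retained-intron transcript of 3209 bases, and the coding transcript Ctsc-001 of 2493 bases was listed at 0. In M2, Ctsc-001 was at 6.39 FPKM and Ctsc-002 at 6.85. The transcripts share 383 bases, which is 15.4% of Ctsc-001. With coding transcripts only, Ctsc therefore turned around and was listed at 0 in CD4 and M1 and above 0 in M2. A value of 0 can be a failed estimate of the transcript model, and which transcript the fragments came from was not tested.

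Ctsh and Ctsl were also divided between transcripts. For Ctsh, the coding transcript Ctsh-001 held 54.8% of the level in M1 and 38.5% in M2, and the rest was on Ctsh-003, annotated for nonsense-mediated decay, all of whose 1238 bases lie within Ctsh-001. With every row summed, Ctsh-001 held 53.7% in M1, 29.1% in M2 and 52.0% in CD4. A further coding transcript, Ctsh-004, had a value in M2 alone, at 7.10 FPKM or 24.4% of the level. Coding transcripts together held 53.7% in M1, 53.5% in M2 and 52.0% in CD4, and Ctsh-003 held 44.2%, 46.5% and 48.0%. For Ctsl, both transcripts are coding, and Ctsl-202 held 55.4% of the level in M1 and 54.7% in M2. With every row summed, the division of Ctsl between its transcripts was thus nearly the same in libraries that differed in level. So was that of Ctsh between all coding transcripts and Ctsh-003, but in M2 this rests on Ctsh-004. The remaining 7 members had a level above 0 on a single transcript, and of the 38 rows used 25 were listed at 0 in all 3 libraries.

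**Figure D4:**
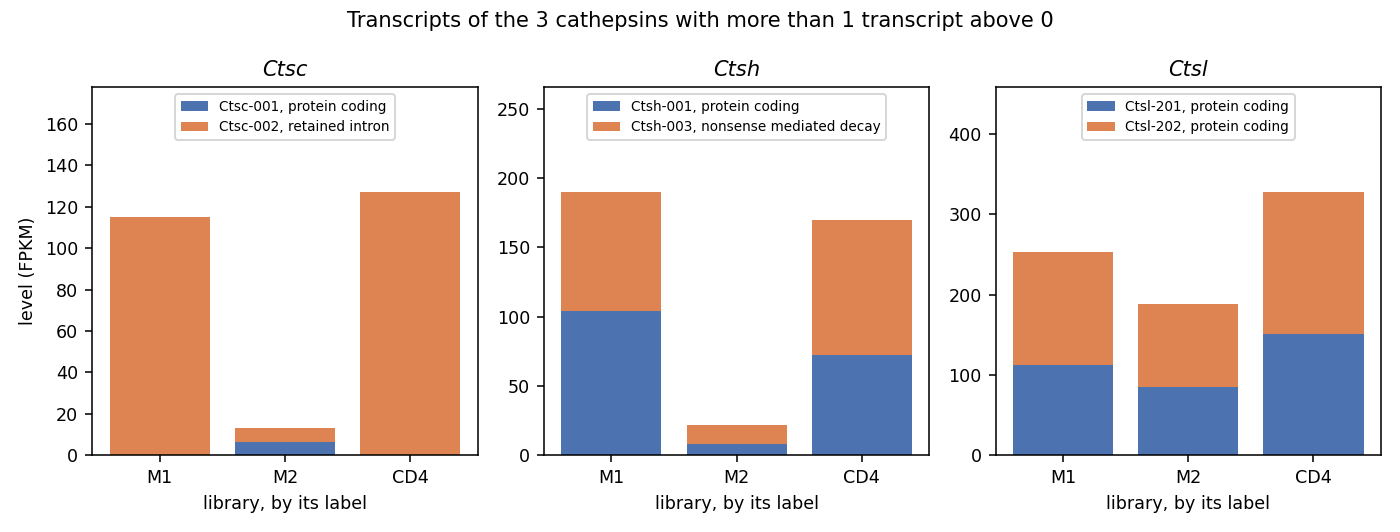
FPKM of the 2 transcripts with a level above 0 of Ctsc, Ctsh and Ctsl in each library, from the rows used for the gene levels, stacked, with the annotated kind of transcript in the legend. The whole Ctsc bar of M1 and CD4 is the retained-intron transcript, whereas the bars of Ctsl divide in about the same proportion in all 3 libraries.

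Ctsb, the endopeptidase and peptidyl-dipeptidase that is among the most abundant lysosomal proteases, separated the libraries labelled CD4 and M1. It lies on chromosome 14 from 63741302 to 63764758 (ENSMUSG00000021939). Its level was 1116 FPKM in CD4, 370 in M1 and 162 in M2. The ratio of CD4 to M1 was 3.02 (3.00 to 3.04), the only member past 2-fold. Against M2, CD4 was 6.90 times (6.83 to 6.97) and M1 2.29 times (2.26 to 2.31) as high. These last ratios depend on a second row of the same transcript, with 150 FPKM in M2 and no value in CD4 and M1. With that row added, M2 was at 312 FPKM, CD4 was 3.58 times and M1 1.19 times as high, and Ctsb was no longer past 2-fold between M1 and M2.

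Lgmn encodes legumain, the asparaginyl endopeptidase that processes several cathepsins to their mature forms. It was at 1175 FPKM in the library labelled CD4, 254 in M1 and 94.8 in M2. CD4 was thus 4.62 times as high as M1 and 12.4 times as high as M2, in the same order as Ctsb. Of the 9 genes of processing and sorting to the lysosome, 3 were at least 2-fold higher in CD4 than in M2 (Lgmn, Nagpa and Scarb2). The 1 that was lower was Igf2r, the large mannose 6-phosphate receptor, at 2.56 FPKM in CD4, 8.18 in M1 and 9.59 in M2. Among the 12703 genes, 15.0% were higher in CD4 than in M2 and 17.0% lower. Between CD4 and M1, 1 of the 9 was at least 2-fold higher in CD4 (Lgmn) and 2 were lower (Igf2r and Sort1). The shares of the 12703 genes were 6.37% and 6.60%. Sort1 was at 0.793 FPKM in CD4, 3.94 in M1 and 0.858 in M2. M6pr, the small mannose 6-phosphate receptor, was at 99.8, 90.8 and 57.3 FPKM in CD4, M1 and M2.

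Ctsz and Ctsa made up the rest of the 6. Ctsz (ENSMUSG00000016256, chromosome 2 from 174252994 to 174264540), a carboxypeptidase also called cathepsin X, was at 651 FPKM in CD4, 531 in M1 and 151 in M2. Ctsa (ENSMUSG00000017760, chromosome 2 from 164658373 to 164666532), which protects β-galactosidase and neuraminidase in a complex, reached 473, 270 and 104 FPKM. Both ran in the order CD4, M1, M2, with ratios of CD4 to M2 of 4.32 (4.24 to 4.40) for Ctsz and 4.56 (4.48 to 4.63) for Ctsa. Of the partners of Ctsa, Glb1, β-galactosidase, was at 55.3, 26.4 and 31.2 FPKM in CD4, M1 and M2, and Neu1, neuraminidase, at 37.0, 25.2 and 23.5. Neither was 2-fold different between CD4 and M2, but between CD4 and M1 Glb1 was 2.09 times as high in CD4, past 2-fold, where Ctsa was 1.75 times as high.

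Ctsl and Ctsd were high in all 3 libraries and differed by less than 2-fold in every pair. Ctsl (ENSMUSG00000021477, chromosome 13 from 64464522 to 64471614), an endopeptidase, was at 327 FPKM in CD4, 253 in M1 and 189 in M2. On these rows it was the highest cathepsin in M2, but with every row summed Ctsb was higher there, at 312 FPKM against 192. Ctsd (ENSMUSG00000007891, chromosome 7 from 149557053 to 149573943) was at 183 FPKM in CD4, 105 in M1 and 107 in M2. The interval of the M1 to M2 ratio of Ctsd, 0.963 to 1.01, included 1. For Ctsd the values of M1 and M2 lay together below CD4, while for Ctsl the order was CD4, M1, M2. Both have a CACGTG match in the window printed above, as does Ctsa, which was 4.56-fold higher in CD4 than in M2.

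Ctsk and Ctsw were the members with their highest level in the library labelled M2. Ctsk (ENSMUSG00000028111) encodes the collagen-degrading cathepsin of osteoclasts and lies on chromosome 3 from 95303208 to 95313284, 17423 bases from its neighbor Ctss. It was at 18.9 FPKM in M2, 11.0 in M1 and 10.9 in CD4. M2 was 1.72 times (1.59 to 1.86) as high as M1 and 1.73 times (1.61 to 1.87) as high as CD4, and M1 and CD4 could not be told apart by counting error, with a ratio of CD4 to M1 of 0.993 (0.912 to 1.08). Of these adjacent genes, Ctsk was thus highest and Ctss lowest in M2. The 6 osteoclast markers did not share this order. Acp5 was at 31.7 FPKM in M2, 11.7 in M1 and 7.37 in CD4, and Itgb3 at 13.6, 0.466 and 0.255, whereas the fusion genes Dcstamp and Ocstamp, listed under the older symbols Tm7sf4 and 4833422F24Rik, were highest in M1, Tm7sf4 at 7.67 FPKM against 0.154 in M2 and 0.309 in CD4. Oscar and Calcr were at or near 0 in all 3 libraries, and the list summed to 45.4 FPKM in M2, 22.1 in M1 and 8.92 in CD4. The 7 fibroblast markers summed to 10.5 FPKM in M2, 7.33 in M1 and 32.3 in CD4. Their part in the Ctsk levels was not tested.

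Ctsw (ENSMUSG00000024910, chromosome 19 from 5465240 to 5468498) is known from CD8 T cells and natural killer cells. It was at 21.0 FPKM in M2, 0.0914 in CD4 and 0.0649 in M1, which corresponds to about 1557, 8 and 5 fragments. M2 was 230 times (116 to 533) as high as CD4 and 324 times (138 to 999) as high as M1, the widest differences of the family. In CD4 and M1 the gene was near the floor of the libraries, at the 21.3 and 19.1 percentile of genes above 0, and the interval of their ratio, 0.406 to 5.47, shows that these levels do not set them apart. Repeated rows of the gene added 9.18 FPKM in M2 and 0.306 in M1, after which M2 was 81.5 times M1 and 330 times CD4.

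Most markers of CD8 and NK cells moved with Ctsw. Of 7, 4 were at least 2-fold higher in M2 than in CD4 and 5 than in M1. The shares of the 12703 genes were 17.0% and 16.6%. All 9 T-cell markers were also at least 2-fold higher in M2 than in CD4 and in M1. The 7 markers summed to 32.3 FPKM in M2, 3.76 in M1 and 0.533 in CD4, with Nkg7 at 17.1, 0.272 and 0.0902 FPKM, and Cd8a at 5.18, 0.132 and 0.0494. The exception was Klrb1c, at 0.735 FPKM in M2, 3.18 in M1 and listed at 0 in CD4, and Prf1 was listed at 0 in M2 and M1. B-cell markers were also highest in M2, where Cd79a was at 18.2 FPKM and 3 of 4 were at least 2-fold higher than in CD4, and the fourth, Cd79b, was listed at 0 in M2. The part of these cells in the level of Ctsw was not tested.

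The make-up of the cathepsin sum differed between the libraries. Ctss held 38.1% of it in M1 and 29.6% in CD4 but 12.8% in M2. Ctsl held 20.9% in M2 and 7.53% in CD4, and Ctsd 11.8% in M2 and 4.21% in CD4. The 3 highest members held 70.3% of the sum in CD4, 68.3% in M1 and 55.5% in M2, so that the M2 sum was spread more evenly. In order of level, CD4 ran Ctss, Ctsb, Ctsz, Ctsa and Ctsl, M1 ran Ctss, Ctsz, Ctsb, Ctsa and Ctsl, and M2 ran Ctsl, Ctsb, Ctsz, Ctss and Ctsd. With every row summed, M2 ran Ctsb, Ctsl, Ctsz, Ctss and Ctsd, the share of Ctsb in M2 was 29.1% rather than 17.9%, that of Ctsl 17.9% and that of the 3 highest members 61.0%, while the 5 highest kept their order in CD4 and M1. The neighbors in these orders whose counting intervals overlapped were Ctsd with Ctsa and Ctsh with Ctsw, both in M2.

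**Figure D5:**
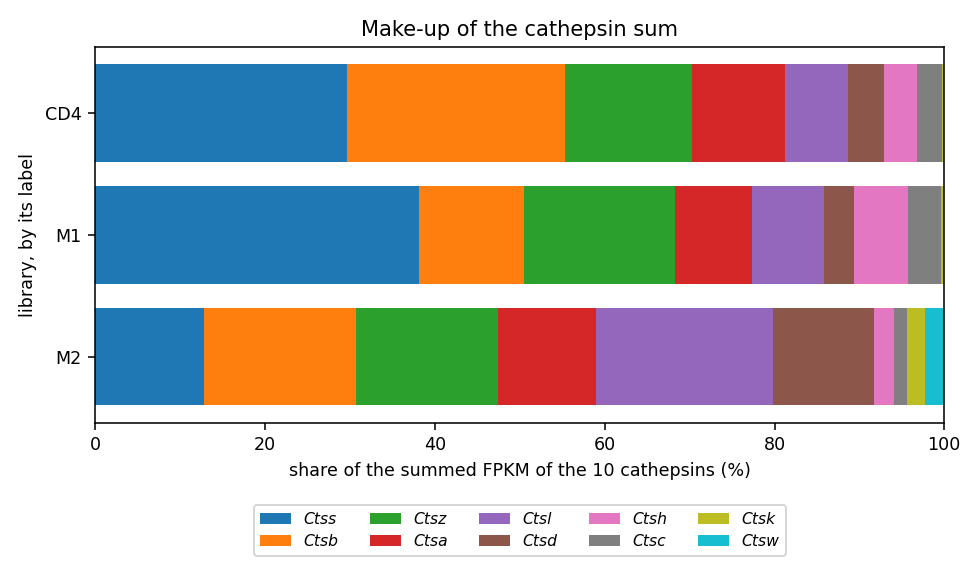
Share of each gene in the summed FPKM of the 10 cathepsins, in percent, for the 3 libraries by label. The Ctss segment is 38.1% in M1, 29.6% in CD4 and 12.8% in M2, where Ctsl with 20.9% is the widest segment on the rows plotted. With every row summed Ctsb would be the widest in M2, at 29.1%.

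Other cathepsins of the genome did not share a single order. Of 12 other cathepsin genes, 3 had at least 1 FPKM in a library. Ctse, an aspartic protease of the endosome, was at 69.1 FPKM in M2, 13.2 in CD4 and 12.2 in M1. Ctsf, a cysteine cathepsin, was at 44.6 FPKM in CD4, 7.09 in M1 and 2.15 in M2, and its ratio of CD4 to M1 of 6.29 was above that of Ctsb. Ctso was at 11.0 FPKM in M1, 6.22 in M2 and 4.91 in CD4. The 7 cathepsin genes Cts3, Cts6, Cts7, Cts8, Ctsj, Ctsq and Ctsr, which belong to a placental cluster, were listed at 0 in each library, and Ctsg and Ctsm did not exceed 0.196 FPKM in any.

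The summed level of the endogenous inhibitors was highest in CD4 and lowest in M2, as was that of the cysteine cathepsins. However, 7 of the 12 inhibitor genes had their highest level in M2. Of these, Cst6, Stfa1, Stfa3, BC100530 and Stfa2l1 did not exceed 1.01 FPKM there. Only 6 of the 12 reached 1 FPKM in any library, and a gene below 1 FPKM in both libraries cannot pass 2-fold. The median difference of the 12 was -0.06 for CD4 over M2 and -0.11 for M1 over M2, beside -0.10 and -0.09 for the 12703 genes. Both medians of the 12 were set by genes near 0. At least 2-fold higher in CD4 than in M2 were 3 of the 12 and lower 1, beside 15.0% and 17.0% of the 12703 genes. Between M1 and M2, 2 of the 12 were higher in M1 and 2 in M2, near the shares of the 12703 genes, 14.2% and 16.6%. The 8 cysteine members summed to 3688 FPKM in CD4, 2607 in M1 and 692 in M2, and 12 inhibitor genes to 1112, 909 and 253 FPKM. The sum of inhibitors per sum of cathepsins was 0.301 in CD4, 0.349 in M1 and 0.366 in M2, which is a narrower range than that of either sum. With every row summed it was 0.300, 0.349 and 0.295, so that the place of M2 in this order rests on the rows used. Whether each of the 12 inhibitors, Serpinb6a among them, acts on these 8 cathepsins was not tested. Cst3, cystatin C, held 75.6% of the inhibitor sum in CD4, 74.8% in M1 and 49.1% in M2. It was at 841 FPKM in CD4, 680 in M1 and 124 in M2. Cstb, cystatin B of the cytosol, was at 186, 200.7 and 77.5 FPKM. Cst7, cystatin F, which is known as an inhibitor of Ctsc in leukocytes, went the other way, at 9.23 FPKM in M2, 1.15 in CD4 and 0.965 in M1, and Serpina3g was at 7.81 FPKM in M2, 4.37 in CD4 and 1.95 in M1. Serpinb6a was highest in CD4 at 78.6 FPKM, against 32.2 in M2 and 23.8 in M1. Csta was listed at 0 in each library. Of 4 transcription factors of lysosomal genes, 3 were at least 2-fold higher in CD4 than in M2 and in M1 than in M2. Of these 3, Tcfec was so only through a value of 0 in M2 that can be a failed estimate. Among the 12703 genes, 15.0% and 14.2% were higher in these directions. Between CD4 and M1, 0 of the 4 differed by 2-fold, where 6.37% of the 12703 genes were higher in CD4 and 6.60% in M1. Tfe3, listed as Tcfe3, was at 43.6 FPKM in CD4, 36.2 in M1 and 10.8 in M2. Mitf was at 6.92, 4.79 and 0.488 FPKM, and Tfec, listed as Tcfec, at 32.4 and 30.4 FPKM in CD4 and M1 and listed at 0 in M2. Tfeb, listed as Tcfeb, was within 2-fold in all pairs, at 10.9, 7.92 and 7.75 FPKM in CD4, M1 and M2.

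The genes most like each member over the 3 libraries were found by the largest difference in log2(FPKM + 1), among 9821 genes of at least 1 FPKM in each library. The gene nearest to Ctsz was Cst3, with a largest difference of 0.37, and that nearest to Ctsc was Lyn, a kinase of myeloid and B cells, with 0.18. Ctsh was nearest to Pld4 (0.28), Ctsa to Ifi27l2a (0.24), Ctsl to Pdia3 (0.11) and Ctsd to AY036118 (0.19). Ctsb was nearest to Grn, progranulin, at 0.59, and Ctss to H2-Ea-ps at 0.66, so that no gene came within 0.5 of either. Ctsk was nearest to Slc16a1 (0.05), and 600 genes lay within 0.5 of it. Ctsw itself is below 1 FPKM in CD4 and M1, so that no gene of this set could lie near it. With 3 libraries, such likeness is a description of levels only.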

How the data were processed

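RNA of 3 sorted cell subsets was sequenced, with 1 library each. The authors quality-trimmed paired reads (51 bases), aligned them to mouse genome MM9 using Bowtie 0.12.8 and TopHat 1.4.1, and ran Cufflinks 2.1.0 guided by Ensembl release 67. Values were deposited in FPKM per transcript, in 135070 rows for 92519 identifiers, with a column for each library and a dash where a row holds no value for it.

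Identifiers were looked up in the GENCODE annotation of NCBIM37 (MM9), built on Ensembl release 65, where 90316 of 92519 were found. For each identifier the first row with values in all 3 columns was kept, and rows were summed per gene. Of 51 rows of the members, 13 were left out. Differences are on the log2(FPKM + 1) scale and a gene was called at a 2-fold difference (1 on this scale). Genes below 1 FPKM in all libraries were left out of the background. To estimate depth, the commonest low product of FPKM and length was taken as 1 fragment, using genes with a single coding transcript of 2500 to 8000 bases. Fragments were FPKM times length times depth. Intervals are exact (Clopper-Pearson for ratios, Poisson for levels), and the reads carry no molecular identifiers. Named genes were the members, the genes of the lists and the nearest gene by level. The members and lists were chosen with earlier results of these data known. The alternatives were the sum over all rows, a pseudocount of 0.1, 2 rescalings, coding transcripts only, the highest transcript only, a 4-fold limit, the background of all genes and the 8 cysteine members. Calls and depth were tested on simulated data. Software was Python 3.11.15 with scipy 1.17.1, numpy 2.4.6, pandas 2.3.3 and matplotlib 3.10.9. Promoter coordinates are of GRCm38.p6 and gene coordinates of NCBIM37.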

Additional observations from a re-analysis of the deposited data

Results flagged for a closer look

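Rows of the table that the gene levels do not use held values for 4 members, and for 3 of them these came to at least 10% of the level used. They stood out because they lie outside the rows compared above and exceed the level of 3 fragments. For Ctsb, a second row held 150 FPKM in the library labelled M2. For Ctsh, such rows held 7.10 FPKM in M2 and 33.4 in CD4. For Ctsw, they held 9.18 FPKM in M2 and 0.306 in M1. How these rows arose was not tested.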

How the results depend on the processing

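No paired analysis was possible because each subset had 1 library, and no replicate could be left out. With coding transcripts only, the differences of Ctsc in CD4 and in M1 against M2 turned around, both to -2.89, by construction since its coding row is listed at 0 in CD4 and M1. Genes at least 2-fold higher in M2 then numbered 2 rather than 1 in each comparison with M2. At a 4-fold limit, 3 members rather than 6 were higher in M1 than in M2, and 0 rather than 1 were higher in CD4 than in M1. The median difference of CD4 over M2, 2.14, was 1.97 with all rows summed, 2.20 and 1.98 with libraries rescaled by the median ratio and to a total of 1000000, 1.45 with coding transcripts only and 2.44 over the 8 cysteine members. That of M1 over M2, 1.28, was 0.89, 1.32, 1.10, 0.80 and 1.50 in the same settings. That of CD4 over M1, 0.24, was 0.25 with a pseudocount of 0.1, 0.26 with the median ratio and 0.16 over the 8 cysteine members. Elsewhere the cause was not tested. Over all 36835 genes, without the limit of 1 FPKM, 5.17% were higher in CD4 than in M2 and 5.85% lower, 4.90% higher in M1 than in M2 and 5.73% lower, and 2.20% higher in CD4 than in M1 and 2.28% lower, since a gene below 1 FPKM cannot pass. Of the 30 differences of single members, 1 crossed the 2-fold limit with all rows summed, which was Ctsb between M1 and M2. The values of Ctsw in CD4 and M1 rest on few fragments.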
